A study of Mus musculus with 29 samples.

Results

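Fatty acid oxidation and the breakdown of leucine, isoleucine and valine (the branched-chain amino acids, BCAA) were followed as a pair of mitochondrial degradation pathways through 3T3-L1 adipogenesis with and without a short period of KDM5 inhibition. The set was defined by gene name and by presence in the count table, which the authors had filtered, and held 37 of the 11959 genes there; it was drawn up with earlier results of these data known. Of these, 18 belonged to fatty acid oxidation, 16 to BCAA catabolism, and 3 (Echs1, Acat1 and Hsd17b10) encoded enzymes that serve both. 3T3-L1 is a mouse fibroblast line, maintained as 1 line rather than taken from separate animals, that forms white adipocytes in culture. Cells received 10 µM KDM5-C70 (C70), an inhibitor of the KDM5 histone H3K4 demethylases, or the DMSO vehicle alone, from day -2 (full confluence) to day 0. All cultures were then given dexamethasone, insulin, isobutylmethylxanthine and a PPARγ agonist from day 0 to day 2 and adipocyte medium afterwards, so the groups of days 1, 2 and 7 shared the inducing medium, those of day 0 were collected before it, and no group received C70 after day 0. RNA was collected at days 0, 1, 2 and 7, giving 8 groups: n = 3 vehicle and n = 4 C70 samples at days 0, 1 and 2, and n = 4 of each at day 7. The labels call all samples adipocytes, although the day 0 cells had not yet been induced.

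Long-chain fatty acids enter mitochondria as carnitine esters through CPT1, the carnitine carrier and CPT2, and are then shortened by repeated rounds of acyl-CoA dehydrogenase, hydratase, hydroxyacyl dehydrogenase and thiolase, with electrons handed on by the electron transfer flavoprotein. BCAA are first transaminated by BCAT1 in the cytosol or BCAT2 in mitochondria, then committed to breakdown by the branched-chain keto acid dehydrogenase complex, which BCKDK switches off by phosphorylation. After that step each amino acid has its own arm. Differentiating 3T3-L1 cells are known to take up and degrade large amounts of BCAA, whose carbon enters the acetyl-CoA and propionyl-CoA used for lipid synthesis, whereas CPT1 is the entry point that malonyl-CoA inhibits when fat is being made.

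Totals per sample ranged from 16320275 to 24037170 counts. Expression is given as CPM (a gene's count relative to its library's scaled total) after scaling by the trimmed mean of M values, and differences were tested in edgeR with its quasi-likelihood method over all 11959 genes, with an adjusted p under 0.05 and a log2 fold change beyond 0.32 in either direction counted as a call. The labels do not say whether replicates were separate cultures, so the p-values measure the spread between these samples. As a check of the labelled cell type, all 8 adipocyte markers examined rose from vehicle day 0 to vehicle day 7. All 7 preadipocyte or fibroblast markers fell. Of all genes tested, 36.7% rose and 36.7% fell between these days. In bulk RNA, fewer adipocytes and less RNA of a gene per adipocyte cannot be told apart. A single library stood apart: replicate 1 of vehicle at day 7 was the highest of its group for 31 of the 37 genes, and the C70 results at day 7 are also given without it for the pathway medians and for genes whose call or overlap it decided. In the annotation, 18 of the 37 genes overlap a gene on the opposite strand, and the use of strand in counting is not given in the sources used here, so reads of such pairs may be mixed.

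Proximal promoter sequence is shown for the genes that bracketed the time course described below: Cpt1a and Bcat1, the pair that fell, Bcat2 and Aldh6a1, the pair of BCAA genes that rose most, and the stretch between Hadha and Hadhb, whose products form a single enzyme complex and which are transcribed away from each other. The sequences are from RefSeq on GRCm38.p6, 5′ to 3′ on the strand of the gene, and stop before the first untranslated or coding base that GENCODE M21 annotates within the window. The Cpt1a stretch lies inside the annotated gene, in the first intron of a longer transcript that starts at 3322334, and ends where the first exon of another Cpt1a transcript begins. Capitals mark letters that match a motif searched.
Cpt1a, chr19:3323051-3323284, plus strand: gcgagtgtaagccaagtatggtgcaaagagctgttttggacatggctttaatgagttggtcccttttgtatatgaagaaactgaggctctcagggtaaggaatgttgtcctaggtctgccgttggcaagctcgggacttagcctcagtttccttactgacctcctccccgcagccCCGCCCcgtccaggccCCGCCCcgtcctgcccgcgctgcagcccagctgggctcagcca
Bcat1, chr6:145076185-145076407, minus strand: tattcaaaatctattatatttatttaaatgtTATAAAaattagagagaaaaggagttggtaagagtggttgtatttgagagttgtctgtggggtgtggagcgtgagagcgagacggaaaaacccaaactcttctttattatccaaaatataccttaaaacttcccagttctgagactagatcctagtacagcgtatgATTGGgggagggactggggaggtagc
Bcat2, chr7:45569903-45570152, plus strand: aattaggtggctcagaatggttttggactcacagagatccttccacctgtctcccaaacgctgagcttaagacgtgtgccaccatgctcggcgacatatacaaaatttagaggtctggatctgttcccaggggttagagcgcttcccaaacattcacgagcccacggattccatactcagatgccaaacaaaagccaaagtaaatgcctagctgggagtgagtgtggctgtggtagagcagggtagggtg
Aldh6a1, chr12:84451025-84451274, minus strand: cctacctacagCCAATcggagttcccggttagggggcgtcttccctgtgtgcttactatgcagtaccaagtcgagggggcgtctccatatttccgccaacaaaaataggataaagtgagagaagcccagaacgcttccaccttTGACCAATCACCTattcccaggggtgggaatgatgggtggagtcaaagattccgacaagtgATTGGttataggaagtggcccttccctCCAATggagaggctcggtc
Hadha to Hadhb, chr5:30155163-30155247, plus strand: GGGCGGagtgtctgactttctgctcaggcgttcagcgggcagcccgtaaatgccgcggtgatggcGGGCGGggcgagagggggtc

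The motifs were searched on both strands in windows of 300 bases, from 250 before to 50 after each RefSeq start, which existed for 33 of the 37 genes as 38 windows. The Cpt1a sequence carried 2 copies of the Sp1 box GGGCGG, read as CCGCCC on the gene's strand, and the 85 bases between Hadha and Hadhb also carried 2. The Bcat1 sequence held a TATAAA and a CCAAT box, read as ATTGG, and none of the motifs searched was found in the Bcat2 window. In Aldh6a1, TGACCAATCACCT matched the DR1 repeat (AGGTCA, any 1 base, and AGGTCA again, the form bound by PPAR and RXR) with 2 mismatches on the opposite strand, and the same letters contained a CCAAT box. A DR1 with up to 2 mismatches was found in 5 of 38 windows (13.2%), those of Aldh6a1, Echs1, Etfa, Pcca and Slc25a20, against 2.65% of the windows of all genes in the count table and 3.86% of all 32851 windows. The corresponding shares were 52.6%, 38.2% and 37.4% for CCAAT, 57.9%, 63.9% and 35.7% for GGGCGG, and 13.2%, 13.6% and 6.33% for the NRF1 site (GCGCA followed by TGCGC) with up to 1 mismatch. The estrogen-related receptor element TCAAGGTCA was in 0 of 38 windows and 0.252% of those of genes in the table. CACGTG was in 1 window (2.63%, against 10.0% of those of genes in the table and 7.15% of all). TATAAA was in 2 (5.26%, against 6.94% and 13.6%). These matches describe letters and were not tested for binding.

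In vehicle-treated cells, nearly all genes of both pathways rose during adipogenesis. From day 0 to day 7, 35 of the 37 genes rose, against 36.7% of all genes tested, and 2 fell, Cpt1a and Bcat1, against 36.7% of all genes. The median log2 change was 2.20 over the 18 fatty acid oxidation genes, 2.96 over the 16 BCAA genes and 2.11 over the 3 shared enzymes, where the median of all genes was 0.00834. Acadm, the medium-chain acyl-CoA dehydrogenase, rose most in fatty acid oxidation, from 52.6, 49.2 and 53.6 CPM in the vehicle samples at day 0 to 881, 810.2, 809 and 761 at day 7. This was a log2 change of 3.98 (SE 0.0611, adjusted p = 6.54e-31). Bcat2, the mitochondrial transaminase, rose most of all 37 genes, from 25.4, 27.1 and 23.8 CPM to 1463, 1133, 1141 and 1153, a log2 change of 5.59 (SE 0.099, adjusted p = 1.75e-29). Aldh6a1, which oxidises methylmalonate semialdehyde in valine breakdown, rose by 5.16 on the log2 scale, and Dbt, the core subunit of the keto acid dehydrogenase complex, by 4.54. The smallest rise was that of Bckdk, the kinase that inactivates this complex, at 0.89, followed by Acadl (long-chain acyl-CoA dehydrogenase) at 1.18 and Eci2 (an enoyl-CoA isomerase for unsaturated chains) at 1.27.

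Of the genes that fell, Cpt1a acts at the entry of fatty acids into mitochondria. Bcat1 acts at BCAA transamination, the step also catalysed by the product of Bcat2, which rose. Cpt1a, the outer membrane carnitine palmitoyltransferase, stood at 210.5, 197 and 209 CPM in the vehicle samples before induction, 145, 138 and 160.4 on the first day, 66.7, 62.8 and 60.4 on day 2 and 30.5, 34.6, 33.9 and 33.3 on day 7. No sample of one day overlapped a sample of another day, and the log2 change from day 0 to day 7 was -2.63 (SE 0.0673, adjusted p = 1.44e-25). Bcat1, the cytosolic transaminase, fell more steeply on the first day, from 76.1, 94.1 and 76.9 CPM at day 0 to 7.21, 7.47 and 7.16 at day 1 and 2.43, 2.17 and 2.10 at day 2. At day 7 it was 4.13, 4.28, 3.63 and 3.29, above every day 2 sample, with a log2 change from day 0 of -4.43 (SE 0.0841, adjusted p = 9.69e-29).

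**Figure D1:**
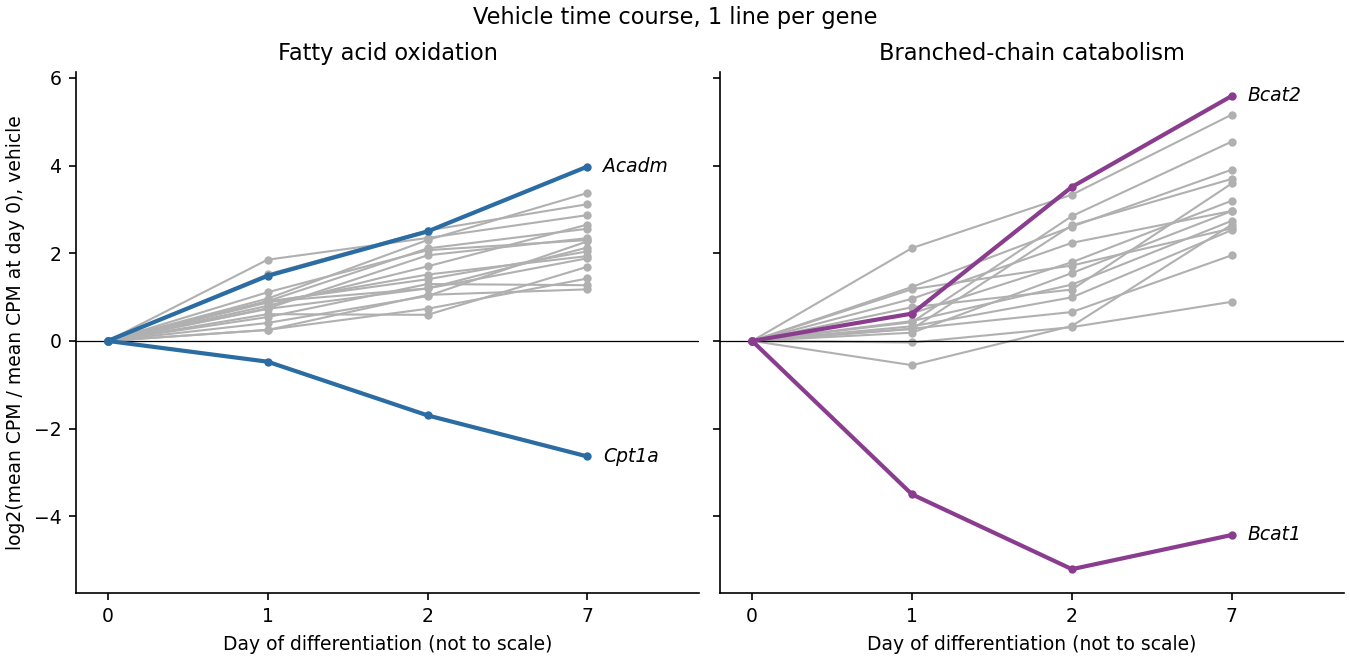
Change of each gene in vehicle samples, as the log2 ratio of its mean CPM to that at day 0 (y axis) against day (x axis, not to scale), with 1 line per gene for 18 fatty acid oxidation genes (left) and 16 BCAA genes (right). All lines end above 0 at day 7 except Cpt1a and Bcat1; Acadm and Bcat2 end highest.

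The pathways differed in their timing by the counts and medians, although this difference itself was not tested. From day 0 to day 1, 15 of 18 fatty acid oxidation genes and 10 of 16 BCAA genes rose, with median log2 changes of 0.838 and 0.437; 26.2% of all genes rose in this step. From day 1 to day 2, 15 of 18 and 15 of 16 rose (background 22.3%) and Cpt1a and Bcat1 fell further (background 22%), with medians of 0.696 and 1.03. From day 2 to day 7, 14 of 18 and 16 of 16 rose (background 26.6%), with medians of 0.614 and 1.41. In that last step Eci2 (-0.03) did not pass the test, Acadl (0.13) and Etfdh (0.23) passed the adjusted p but not the fold threshold, and Cpt1a fell (background 26.7%). Besides Bcat1 and Cpt1a, 1 gene fell from day 0 to day 1, Pccb, the beta subunit of propionyl-CoA carboxylase, with means of 24.95 ± 1.01 (SD, n = 3) and 17.01 ± 0.373 CPM (SD, n = 3) and a log2 change of -0.55; 27.9% of all genes fell in this step. It then rose to 157 ± 6.20 CPM (SD, n = 4) by day 7.

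Levels were compared between genes only per kilobase of exon, as RPKM (CPM per kilobase of merged GENCODE exons), which understates genes whose annotated exons are not all used. At day 0 in vehicle, Bcat1 was at 8.83 ± 1.09 RPKM (SD, n = 3) and Bcat2 at 6.52 ± 0.43 (SD, n = 3). At day 7 the cytosolic form was at 0.411 ± 0.0492 RPKM (SD, n = 4) and the mitochondrial form at 313 ± 41.1 (SD, n = 4). The ratio of Bcat2 to Bcat1 thus went from 0.742 ± 0.0544 at day 0 to 12.8 ± 1.05 at day 1, 312 ± 22.1 at day 2 and 767 ± 99.5 at day 7 (SD over vehicle samples), with no overlap between days. The 3 keto acid dehydrogenase subunits stood at 21.4 ± 0.503 RPKM for Bckdha (E1 alpha), 8.20 ± 0.204 for Bckdhb (E1 beta) and 4.66 ± 0.219 for Dbt (E2) at day 0 (SD, n = 3). At day 7 they were 258 ± 27.3, 106 ± 13.1 and 109 ± 9.73 RPKM in that order (SD, n = 4), so Bckdha was highest at both ends of the course and Bckdhb and Dbt lay within their spread of each other at day 7. In fatty acid oxidation the highest level at day 7 was that of Acadm, 208 ± 12.6 RPKM, and the lowest that of Cpt1a, 4.33 ± 0.235 (SD, n = 4).

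After C70 given before differentiation, few genes of either pathway differed from vehicle at day 0, most were lower at day 2, and few differed at day 7 by the call that includes the fold threshold. At day 0, 0 of 37 genes rose (background 5.89%) and 4 fell (background 3.09%), all of them BCAA genes: Dbt, Ivd, Hibch and Pccb. Without the fold threshold, 2 genes were higher and 10 lower at day 0 on the adjusted p of the same test alone (background 10.9% and 8.91%). At day 1, 3 rose (background 13.6%), Cpt1a, Acaa2 and Bcat1, and 4 fell (background 7.8%), Bcat2, Bckdhb, Dbt and Pccb. At day 2, 2 rose (background 16.9%), Cpt1a and Bcat1, and 22 fell (background 13.6%), 9 of 18 in fatty acid oxidation, 11 of 16 in BCAA catabolism and 2 of the 3 shared enzymes. At day 7, 2 rose (background 14.3%), again Cpt1a and Bcat1, and 2 fell (background 4.85%), Etfa and Echs1. Without replicate 1 of vehicle at day 7, 4 rose and 0 fell there. Shares of all genes are not given here for fits that left out a sample. On the adjusted p alone, 5 genes were higher and 17 lower at day 1 (background 21% and 19.7%), and 4 higher and 12 lower at day 7 (background 22.3% and 18.8%). With replicate 1 of vehicle at day 7 left out, more of the 37 genes were higher than lower there on the adjusted p alone. Among all genes, more were higher (22.3%) than lower (18.8%) even with that sample kept. Etfb, Hsd17b10, Mccc1, Decr1, Acads, Bcat2, Bckdhb and Pcca were then also higher, and Dbt and Aldh6a1 also lower. Hadha, Hadh, Hibadh and Acaa1a were no longer lower.

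**Figure D2:**
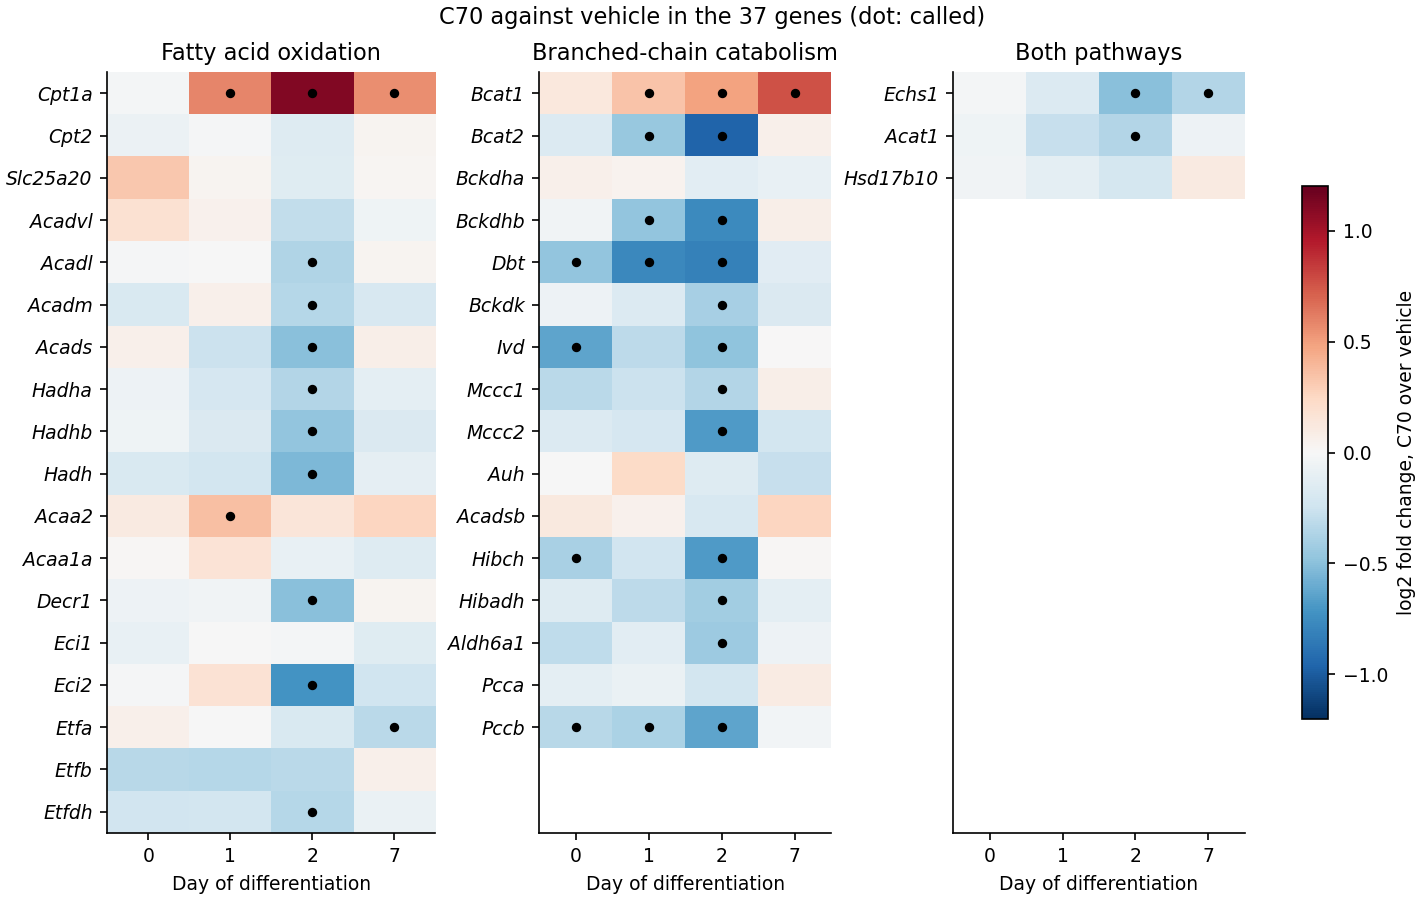
Log2 fold change of C70 over vehicle (colour, blue lower and red higher after C70) for each of the 37 genes (rows) at days 0, 1, 2 and 7 (columns), with a dot where the call thresholds were passed. The day 2 column holds 22 lower calls, and Cpt1a and Bcat1 are the only genes called higher on each of days 1, 2 and 7.

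The course within the C70 samples had the same 2 exceptions. From day 0 to day 7, 35 of 37 genes rose (background 35.9%) and 2 fell (background 35.4%). By step, 25 rose and 2 fell from day 0 to day 1 (background 25.8% and 26.8%), 28 rose and 2 fell from day 1 to day 2 (18.8% and 18.1%), and 36 rose and 1 fell from day 2 to day 7 (27.6% and 27.2%). In that last step 17 of 18 fatty acid oxidation genes rose after C70, where 14 had risen in vehicle.

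The median log2 fold changes of fatty acid oxidation were -0.0374, -0.00834, -0.331 and -0.0686 at days 0, 1, 2 and 7. Those of BCAA catabolism were -0.161, -0.217, -0.428 and -0.0151. Without replicate 1 of vehicle at day 7, the day 7 medians were -0.0100 for fatty acid oxidation and 0.00688, the opposite sign, for BCAA catabolism. The medians of all genes lay between -0.00599 and 0.00379 on these days. By sign alone, 34 of the 37 genes were lower after C70 at day 2, against 6047 of 11959 genes. BCAA genes thus had lower medians than fatty acid oxidation genes at days 0, 1 and 2; the difference between the pathways was not tested, since genes are not replicates.

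**Figure D3:**
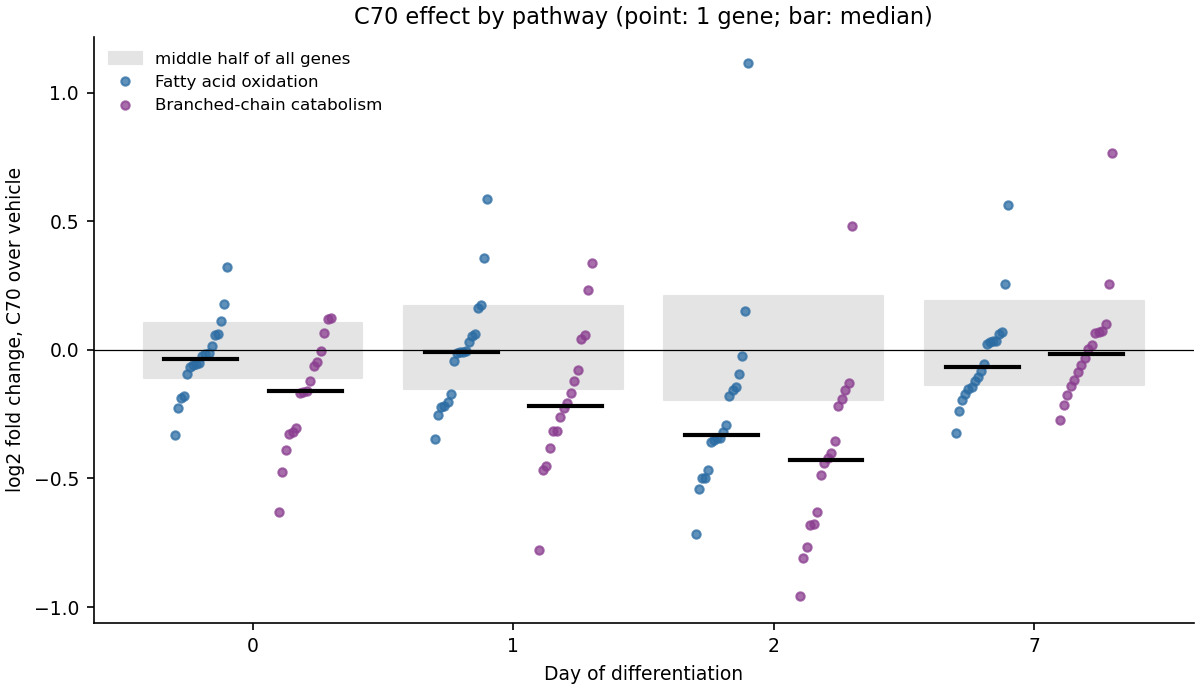
Log2 fold change of C70 over vehicle (y axis) at each day (x axis), with 1 point per gene for the 18 fatty acid oxidation and 16 BCAA genes, black bars for their medians and grey bands from the first to the third quartile of all 11959 genes. At day 2 both medians lie below the band, and at day 7 both lie inside it. At days 0 and 1 the BCAA median lies below the band and that of fatty acid oxidation inside it.

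In the carnitine shuttle, Cpt1a was higher after C70 on 3 of the 4 days. At day 0 the vehicle samples gave 210.5, 197 and 209 CPM and the C70 samples 199, 201, 205 and 202, with overlapping ranges and a log2 fold change of -0.02 (SE 0.0621, adjusted p = 0.844). At day 1 the values were 145, 138 and 160.4 in vehicle and 217, 220.3, 210.4 and 241 with C70, and the groups did not overlap. The log2 fold change was 0.59 (SE 0.0632, adjusted p = 8.46e-09). At day 2 vehicle gave 66.7, 62.8 and 60.4 CPM and C70 139, 127, 138 and 144, every C70 sample lying above every vehicle sample, with a log2 fold change of 1.11 (SE 0.0665, adjusted p = 1.17e-14), the largest in absolute size among the 37 genes on any day. At day 7 the values were 30.5, 34.6, 33.9 and 33.3 in vehicle and 49.4, 44.7, 56.6 and 44.7 with C70, again without overlap, at 0.56 (SE 0.0664, adjusted p = 4.86e-08). The C70 samples at day 2 overlapped the vehicle samples of day 1. Neither of the next transport steps was called on any day: Slc25a20, the carnitine-acylcarnitine carrier, had a log2 fold change of -0.14 and Cpt2, the inner membrane transferase, -0.16 at day 2. At day 0, Slc25a20 lay just short of the fold threshold at 0.32 and passed it without vehicle replicate 1 (0.39), C70 replicate 2 (0.32) or C70 replicate 3 (0.34).

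Among the acyl-CoA dehydrogenases, which open each round of oxidation and differ in the chain length they prefer, 3 of 4 fell at day 2. Acads, the short-chain enzyme, averaged 185 ± 5.79 CPM in vehicle and 131 ± 5.55 after C70 (SD, n = 3 and n = 4), a log2 fold change of -0.50. Acadl fell by 0.36 and Acadm by 0.34 on the log2 scale. Acadm, for which vehicle gave 288, 299 and 290.4 CPM and C70 233, 245, 233 and 211 without overlap, was not called when C70 replicate 4 was left out (-0.30). Acadvl, the very long-chain enzyme, had -0.29 and stayed under the fold threshold. At day 7, none of the 4 was called; Acadm had a mean of 815 ± 49.4 CPM in vehicle and 713 ± 28.2 with C70 (SD, n = 4 each), a log2 fold change of -0.19 (SE 0.0469, adjusted p = 0.00139).

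The trifunctional protein subunits Hadha and Hadhb, which carry out the later reactions on long chains, fell at day 2 by 0.35 and 0.47 on the log2 scale. Hadha went from 567, 547 and 562 CPM in vehicle to 430.1, 444, 438 and 442 with C70, and Hadhb from 112, 104 and 108 to 79.3, 78.7, 79.3 and 74.5, with no overlap for either. Hadh, the dehydrogenase for shorter chains, fell by 0.54. Acaa2, the mitochondrial thiolase that closes the round, moved the other way. At day 1, vehicle gave 67.4, 67.2 and 64.4 CPM and C70 85.6, 83.3, 82.99 and 87.9, so every C70 sample was higher, with a log2 fold change of 0.36 (SE 0.0708, adjusted p = 1.52e-04). At days 2 and 7 Acaa2 had 0.15 and 0.25 and was not called; without replicate 1 of vehicle at day 7 its day 7 value was 0.37 and passed. Acaa1a, the peroxisomal thiolase, was not called on any day, with -0.09 at day 2.

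Eci2 showed the largest fall in fatty acid oxidation. At day 2 the vehicle samples gave 130.3, 134 and 134 CPM and the C70 samples 79.5, 85.3, 83.4 and 75.6, with no overlap and a log2 fold change of -0.71 (SE 0.0485, adjusted p = 2.14e-13). At day 1 its ranges were 74.0 to 81.7 CPM in vehicle and 83.3 to 91.7 with C70, so the C70 samples were the higher ones on the day before, although below the fold threshold (0.17). Decr1, the dienoyl-CoA reductase, also needed for unsaturated chains, fell by 0.50 at day 2, whereas Eci1, the other mitochondrial isomerase, had -0.02 and overlapping groups.

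Among the electron transfer flavoprotein genes, Etfdh was called at day 2 and Etfa at day 7, and the change of the Etfa effect between those days did not pass the test (-0.14, adjusted p = 0.129 in edgeR). Etfdh, the oxidoreductase that passes electrons to ubiquinone, fell by 0.34 at day 2. Etfa, the alpha subunit, was under the threshold at day 2 (-0.18) and fell at day 7, where vehicle gave 383, 335, 331 and 316 CPM and C70 270.2, 294, 265 and 261. The day 7 groups did not overlap, and the log2 fold change was -0.32 (SE 0.0477, adjusted p = 2.23e-06), near the threshold: it was -0.26 without replicate 1 of vehicle at day 7, -0.32, -0.31 and -0.30 without replicates 1, 3 and 4 of C70 at day 7, and -0.32 without replicate 1 of C70 at day 1, and lost its call in each case. Etfb, the beta subunit and the lowest counted of the 37 genes at day 0 (3.32 ± 0.383 CPM in vehicle, SD, n = 3), had -0.33, -0.35, -0.32 and 0.06 on the 4 days, none with an adjusted p under 0.05. Without replicate 1 of vehicle at day 7 its day 1 value passed (-0.34). Its day 7 value was 0.34, and passed, without replicate 1 of vehicle, which held 20.8 CPM against at most 11.8 in the other 3 vehicle samples.

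The BCAA transaminases moved in opposite directions. Bcat2 was not called at day 0 (-0.16). At day 1 vehicle gave 39.2, 43.2 and 35.1 CPM and C70 31.4, 27.02, 31.6 and 24.8, and at day 2 vehicle gave 291, 292 and 287 and C70 142, 157, 155 and 144, with no overlap on either day. The log2 fold changes were -0.45 (SE 0.0874, adjusted p = 1.11e-04) and -0.96 (SE 0.0761, adjusted p = 6.89e-12), the latter the largest fall of the 37 genes on any day. At day 7 vehicle gave 1463, 1133, 1141 and 1153 CPM and C70 1281, 1335, 1305 and 1197, with a log2 fold change of 0.07 (SE 0.069, adjusted p = 0.476). The C70 values lay inside the range of vehicle only through its replicate 1: without it every C70 sample was above the other 3 vehicle samples, with a log2 fold change of 0.17 (adjusted p = 0.00914 in edgeR), under the fold threshold. Bcat1, in contrast, was higher after C70 once differentiation had begun. Its day 1 values were 7.21, 7.47 and 7.16 CPM in vehicle and 9.86, 9.11, 8.73 and 9.10 with C70, its day 2 values 2.43, 2.17 and 2.10 and 3.04, 3.37, 2.75 and 3.279, and its day 7 values 4.13, 4.28, 3.63 and 3.29 and 6.27, 6.57, 7.56 and 5.70. The groups did not overlap on any of these days, and the log2 fold changes were 0.34, 0.48 and 0.77 (SE 0.109, adjusted p = 1.33e-06). These were rises on a level of a few CPM, far under the 82.3 CPM of vehicle at day 0, and the day 1 call was lost without C70 replicate 1 (0.31). The ratio of Bcat2 to Bcat1 RPKM was 0.605 ± 0.0162, 7.46 ± 0.908, 116 ± 12.97 and 472 ± 40.2 after C70 at days 0, 1, 2 and 7 (SD, n = 4), below every vehicle sample of its day on all 4 days.

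The subunits of the keto acid dehydrogenase did not move alike. Bckdha was not called on any day: at day 2, where most genes fell, vehicle gave 93.6, 91.8 and 89.4 CPM and C70 83.4, 85.2, 85.1 and 81.5, a log2 fold change of -0.13 (SE 0.0623, adjusted p = 0.0862). The groups did not overlap, but the adjusted p did not pass. Bckdhb, its partner in the same E1 component, fell at day 1 from 15.9, 19.8 and 17.9 CPM in vehicle to 11.7, 13.5, 14.3 and 12.2 with C70 and at day 2 from 87.1, 93.9 and 95.1 to 52.5, 56.7, 55.5 and 51.4. The log2 fold changes were -0.47 (SE 0.0965, adjusted p = 2.36e-04) and -0.77 (SE 0.0742, adjusted p = 4.30e-10), and at day 7 0.07, or 0.16 without replicate 1 of vehicle. Dbt was already lower at the end of treatment. At day 0 vehicle gave 16.1, 14.8 and 15.9 CPM and C70 10.7, 11.6, 11.3 and 11.4, at day 1 23.04, 21.8 and 18.04 and 12.8, 12.1, 11.8 and 12.3, and at day 2 111, 109 and 116 and 64.6, 69.3, 65.01 and 57.5. There was no overlap on any of the 3 days, with log2 fold changes of -0.47 (SE 0.0922, adjusted p = 3.31e-04), -0.78 (SE 0.0889, adjusted p = 2.70e-08) and -0.81 (SE 0.0693, adjusted p = 3.50e-11). At day 7 the ranges overlapped, at 330.2, 385, 399 and 344 in vehicle and 321, 352, 352 and 299.7 with C70 (-0.14). Bckdk, the inhibitory kinase, fell at day 2 from 57.9, 56.03 and 61.2 to 42.96, 44.9, 46.3 and 42.8 CPM without overlap, a log2 fold change of -0.40 (SE 0.0474, adjusted p = 2.52e-08), and had -0.18 at day 7.

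**Figure D4:**
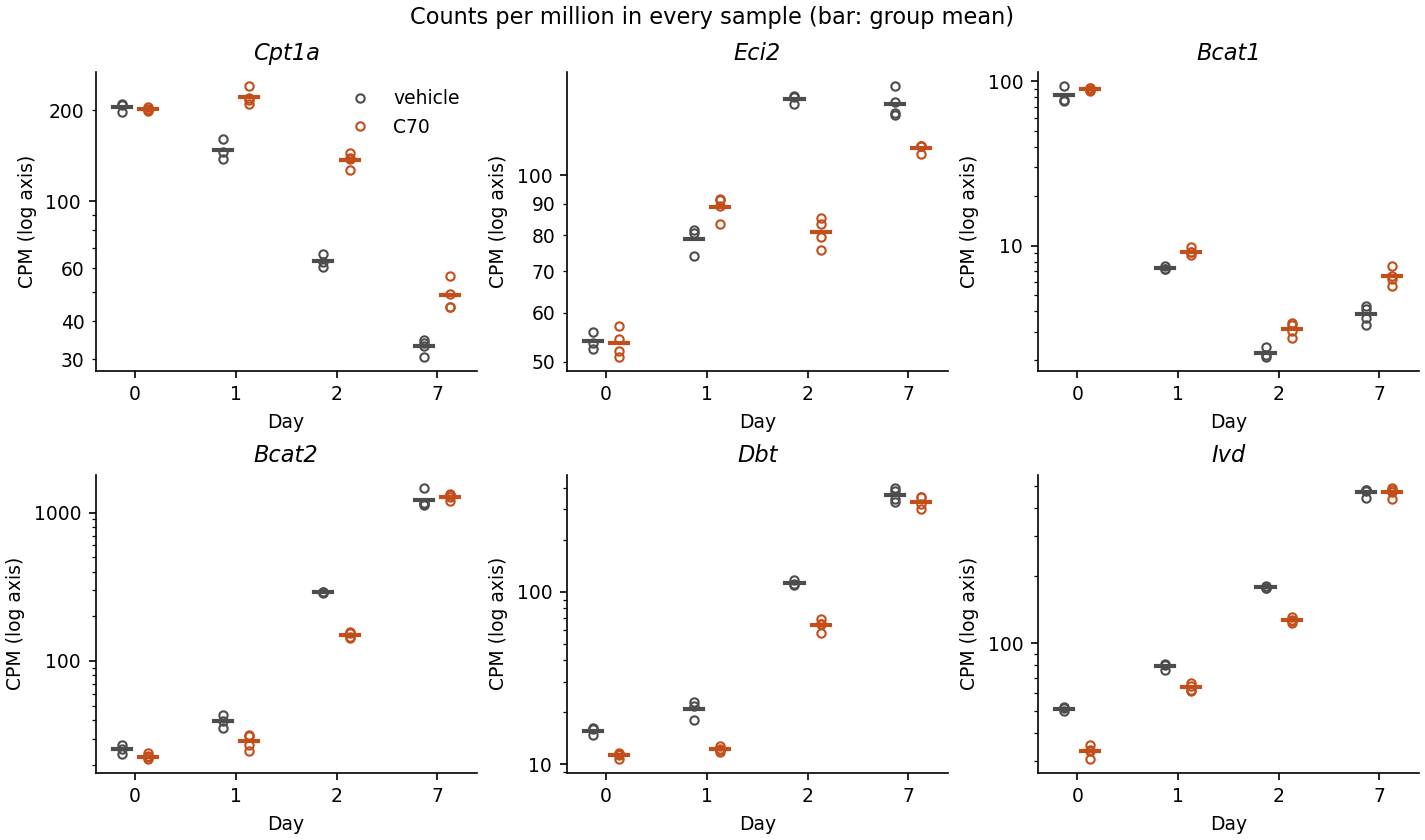
CPM of 6 genes in every sample (y axis, log scale, each panel with its own range) by day (x axis), vehicle in grey and C70 in orange, with circles for samples and bars for group means. Cpt1a and Bcat1 are higher after C70 from day 1 on, Bcat2, Dbt and Ivd are lower at day 2 and overlap vehicle at day 7, Bcat2 only through the highest vehicle sample, and Eci2 is below vehicle at day 2.

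In the leucine arm, Ivd (isovaleryl-CoA dehydrogenase) had the largest effect at day 0, before the inducing medium was given. Vehicle gave 50.1, 51.6 and 52.2 CPM and C70 30.5, 33.4, 35.2 and 33.4, so all C70 samples lay below all vehicle samples, with a log2 fold change of -0.63 (SE 0.0498, adjusted p = 5.71e-11). At day 1 its -0.32 was just short of the fold threshold, at day 2 it fell again with 177, 177 and 179.5 against 126, 128, 124 and 131 CPM (-0.49 (SE 0.0452, adjusted p = 1.92e-10)), and at day 7 it was 0.00. The 2 subunits of methylcrotonyl-CoA carboxylase, Mccc2 and Mccc1, fell at day 2 by 0.68 and 0.35, the latter losing its call without C70 replicate 1 (-0.32). Auh, the hydratase of the arm, had -0.16 and was not called. At day 0 Mccc1 lay just short of the threshold at -0.32 and passed it in 5 of the 29 fits that left out 1 sample.

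In the valine arm all 3 genes fell at day 2. Hibch, the hydroxyisobutyryl-CoA hydrolase, went from 111 ± 0.956 to 69.1 ± 3.33 CPM (-0.68; SD, n = 3 and n = 4) and was also lower at day 0 (-0.39). Hibadh, the next dehydrogenase, fell by 0.42 and Aldh6a1 by 0.44. Acadsb, which acts in isoleucine breakdown on short branched chains, was not called on any day and had -0.19 at day 2 and 0.26 at day 7. Propionyl-CoA carboxylase, where isoleucine and valine carbon meets, was split between its subunits. Pccb fell at days 0, 1 and 2, by 0.33, 0.38 and 0.63, while Pcca had -0.12, -0.08 and -0.22 and was not called. The day 0 call of Pccb was lost without vehicle replicate 2 (-0.30) or C70 replicate 4 (-0.31).

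Of the enzymes that serve both pathways, Echs1, the short-chain enoyl-CoA hydratase, fell at day 2 from 208 ± 5.59 to 147 ± 4.31 CPM (-0.50; SD, n = 3 and n = 4) and again at day 7. There vehicle gave 459.6, 390.1, 372 and 369.6 CPM and C70 299, 328, 304 and 316 (-0.35 (SE 0.0565, adjusted p = 8.43e-06)) without overlap, a call lost without replicate 1 of vehicle (-0.27). Acat1, the acetoacetyl-CoA thiolase, fell by 0.35 at day 2. Hsd17b10, the dehydrogenase of the isoleucine arm, had -0.21 at day 2 and was not called on any day.

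Whether the C70 effect changed between days was tested by interaction contrasts. From day 0 to day 1 the effect rose for Cpt1a (0.61 (SE 0.0882, adjusted p = 6.32e-06)) and fell for Bckdhb (-0.42 (SE 0.137, adjusted p = 0.0267)), with backgrounds of 8.68% and 5.23%. The Bckdhb call was lost without replicate 1 of vehicle (-0.40) or of C70 (-0.39) at day 0, and without replicate 2 of vehicle (-0.34) or replicates 1 (-0.37) and 4 (-0.40) of C70 at day 1. From day 1 to day 2 it rose for 1 gene, Cpt1a (0.53; background 7.36%), and fell for 10 of 37 (background 6.49%): 5 in fatty acid oxidation, 4 in BCAA catabolism and Echs1 (-0.34), whose call was lost in 5 of the 29 fits that left out 1 sample. Eci2 had the largest of these shifts (-0.89 (SE 0.0696, adjusted p = 2.01e-10)), followed by Bcat2 (-0.51). From day 2 to day 7 the effect rose for 15 genes (background 11.9%), 10 of 16 in BCAA catabolism and 5 of 18 in fatty acid oxidation, and fell for 1, Cpt1a (-0.55; background 9.04%). The largest rises were those of Bcat2 (1.02 (SE 0.103, adjusted p = 5.09e-09)) and Bckdhb (0.84). Without replicate 1 of vehicle at day 7, 18 genes rose, 11 in BCAA catabolism, 6 in fatty acid oxidation and 1 shared enzyme. The share of all genes in that fit is not given here. Over the whole course, from day 0 to day 7, the effect rose for 6 genes (background 14%), 5 of them in BCAA catabolism and among them Dbt (0.34), whose call was lost in 7 of the 29 fits that left out 1 sample, and fell for Etfa (-0.38) and Echs1 (-0.33; background 7.96%). Both of these calls were lost without replicate 1 of vehicle at day 7 (-0.32 and -0.25), and that of Echs1 also without replicate 1 (-0.29) or 3 (-0.32) of vehicle or replicate 4 of C70 (-0.31) at day 0, and replicate 1 (-0.31) or 3 (-0.32) of C70 at day 7. Without replicate 1 of vehicle at day 7, Dbt (0.30) was no longer among the rises, and Etfb (0.67), Bcat2 (0.33) and Pccb (0.32) were. These contrasts share samples with the day by day comparisons and add no separate evidence of direction.

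The level of each pathway in a sample was summarised as the median over its genes of log2(CPM over the vehicle mean at day 0). At day 2 the fatty acid oxidation level was 1.45 to 1.47 in vehicle and 1.17 to 1.30 after C70, and the BCAA level 1.61 to 1.67 and 1.17 to 1.19, with no overlap in either. At day 1 the ranges were 0.808 to 0.845 and 0.678 to 0.735 for fatty acid oxidation, and 0.374 to 0.53 and 0.211 to 0.327 for BCAA catabolism. The summed CPM of fatty acid oxidation overlapped at day 1, at 1785 to 1902 in vehicle and 1847 to 1922 after C70. That of BCAA catabolism did not, at 901 to 945 and 794 to 831. The median log2 fold change of fatty acid oxidation at day 1 took either sign when single samples were left out (-0.048 to 0.022). At day 0 the levels of fatty acid oxidation were -0.017 to 0.032 in vehicle and -0.055 to 0.0011 after C70, which overlapped. Those of BCAA catabolism were -0.028 to 0.025 and -0.173 to -0.145, without overlap. At day 7 the levels of fatty acid oxidation were 2.12 to 2.40 and 2.04 to 2.23, which overlapped. Those of BCAA catabolism were 2.88 to 3.08 and 2.78 to 2.88, which overlapped at the lowest vehicle sample. Each C70 level at day 2 thus lay between the vehicle levels of days 1 and 2.

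**Figure D5:**
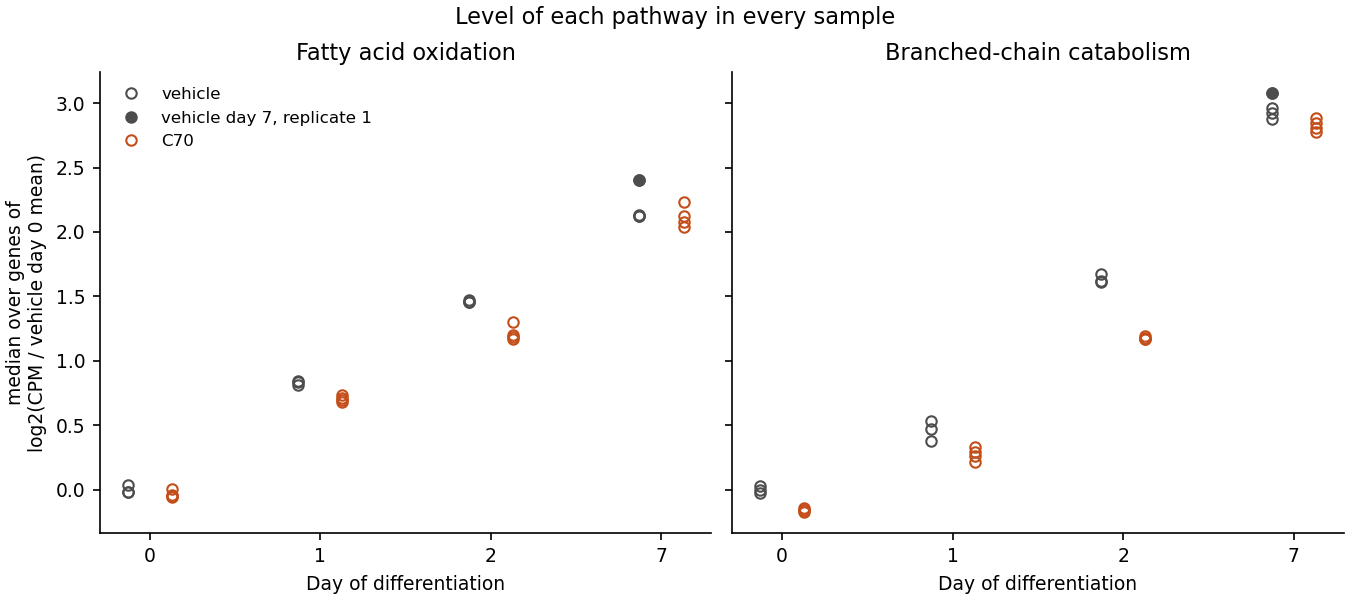
Pathway level in every sample, as the median over genes of log2(CPM over the vehicle mean at day 0) (y axis), by day (x axis) for fatty acid oxidation (left) and BCAA catabolism (right), vehicle in grey and C70 in orange. Replicate 1 of vehicle at day 7 is filled and is the highest sample of its group in both panels.

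Other genes of the same pathways, chosen by name, were examined beside the 37. Of 41 such genes in the table, 4, 9, 4 and 6 rose and 3, 6, 18 and 6 fell after C70 on days 0, 1, 2 and 7, the background being as given for the 37. Cpt1c, the brain form of CPT1, and Abcd2, a peroxisomal transporter of very long chains, rose at days 1, 2 and 7. Acsl1, which activates fatty acids, fell by 1.30 and 1.06 on the log2 scale at days 1 and 2. Ppm1k, the phosphatase that counteracts BCKDK, fell on all 4 days, by 0.45, 0.51, 0.87 and 0.38. Of 7 regulators in the table, 2 rose and 3 fell at day 2 (background 16.9% and 13.6%). Pdk4, a kinase that restrains glucose oxidation, rose by 1.32 and the coactivator Ppargc1a by 1.03. Pparg, Ppargc1b and Klf15 fell by 0.57, 0.52 and 0.64. On the other days, Pparg was called lower at days 0 and 1 and Ppargc1b at days 1 and 7. Pdk4 was called higher at day 1 and Ppargc1a at days 1 and 7.

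Marker genes of adipocytes and their precursors also differed after C70. Of all genes, 5.89%, 13.6%, 16.9% and 14.3% were called higher at days 0, 1, 2 and 7. The shares called lower were 3.09%, 7.8%, 13.6% and 4.85%. At day 0, 1 adipocyte marker rose and 2 fell, and 1 preadipocyte or fibroblast marker, Thy1, rose (0.91). At day 1, when 4 of the 37 pathway genes fell, 6 of 8 adipocyte markers had already fallen and none rose, with summed CPM of 5371 to 5637 in vehicle and 3402 to 3533 after C70, while 3 of 7 preadipocyte or fibroblast markers rose and 1 fell. Of 8 adipocyte markers 6 fell at day 2 and none rose, and their summed CPM was 21199.7 to 22064 in vehicle and 12607 to 13838 after C70. Of 7 preadipocyte or fibroblast markers 6 rose at day 2 and none fell, with summed CPM of 4118 to 4191 and 6702 to 7101. At day 7 adipocyte markers overlapped between groups (22654 to 25874 and 24609.9 to 26964) with 2 higher and 0 lower, while all 7 preadipocyte or fibroblast markers were still higher. The part of these markers in the falls of the pathway genes was not tested. The macrophage gene Cd68, the only 1 of 5 macrophage markers in the table, rose by 3.85, 2.90 and 2.06 at days 0, 1 and 2 and had -0.31 at day 7; its part in the results was not tested either. Of the markers of endothelium 0 of 4 were in the table, of muscle 1 of 4 and of brown adipocytes 1 of 5. The muscle marker, Des (desmin), rose by 0.86, 1.51 and 0.47 at days 0, 1 and 2 and had -0.18 at day 7, and its part in the results was not tested. The brown adipocyte marker was Ppargc1a, which rose at days 1, 2 and 7 (0.62, 1.03 and 0.73).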

How the data were processed

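RNA-seq of 29 samples in 8 groups was analysed. Per the submitters' processing notes, the authors used STAR 2.7.2a with build GRCm38; the notes also name edgeR 3.26.8. The counting program and its strand setting are not given in the sources used here. The deposited table holds whole-number counts per gene, although it is named as normalized, for 11959 genes that the authors had filtered. All its columns were mapped to samples by their titles. Symbols were found for 11953 genes.

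Counts were scaled by the trimmed mean of M values (factors 0.898 to 1.08) and fitted in edgeR 4.0.16 with 1 quasi-likelihood model of group means, no block and no filter; the common biological coefficient of variation was 0.0594. Benjamini-Hochberg adjustment was applied separately in every comparison, and calls had an adjusted p under 0.05 and a log2 fold change beyond 0.32. Comparisons were C70 against vehicle at each day, days within each treatment, and their interactions. No sample was a copy of another: counts of the 39 replicate pairs differed by a chi-square of 2.66 to 46.8 per degree of freedom. RPKM used exon lengths of GENCODE M21, where the authors named Ensembl 97. Members, lists and tests were chosen with earlier results of these data known. Per-sample values are given for Cpt1a, Bcat1, Bcat2, Bckdha and Bckdk, for the 2 genes of each pathway with the largest called change at each day, and for the largest rise and fall in vehicle; other genes named with sample values (Hadha, Hadhb, Echs1) were added after their values were seen. The script was tested on simulated data. Tables were made with Python 3.11.15 and pandas 2.3.3, and figures with matplotlib 3.10.9. Alternatives were other fold thresholds, scalings (RLE, upper quartile, quantile), limma-voom, DESeq2, a filter on the lowest genes, separate fits per day, a replicate block, other pathway memberships and leaving out each sample in turn.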

Additional observations from a re-analysis of the deposited data

Results flagged for a closer look

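Among 185 groups of 4 samples, 15 held a sample that stood apart from the other 3 by Dixon's test, where chance gives about 1 in 20 groups, or 9.25 of 185. Replicate 1 of vehicle at day 7 accounted for 7 of them, each as the highest sample: Bcat2 at 1463 CPM, Hadha at 835, Hibadh at 696, Decr1 at 347, Hsd17b10 at 255, Auh at 67.7 and Etfb at 20.8. Replicate 4 of vehicle at day 7 was lowest for Ivd at 442 CPM. Among C70 samples at day 7, replicate 4 was lowest for Eci2 at 108 CPM and replicate 2 highest for Pcca at 143. Among C70 samples at day 2, replicate 4 was lowest for Acadl at 209.8 CPM and Hadhb at 74.5, replicate 1 lowest for Hadh at 169, replicate 2 highest for Etfdh at 133 and replicate 3 highest for Acaa1a at 96.4. With replicate 1 of vehicle at day 7 left out, the calls at day 7 were 4 higher and 0 lower in place of 2 and 2. The share of all genes without that sample is not given here.

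By the interaction test of edgeR, the C70 effect differed between consecutive days for 7 of the genes chosen for sample values. From day 0 to day 1 its log2 fold change moved by 0.61 for Cpt1a and by -0.42 for Bckdhb. From day 1 to day 2 it moved by 0.53 for Cpt1a, -0.41 for Acadm, -0.89 for Eci2 and -0.51 for Bcat2. From day 2 to day 7 it moved by -0.55 for Cpt1a, 0.48 for Eci2, 1.02 for Bcat2, 0.84 for Bckdhb, 0.67 for Dbt and 0.49 for Ivd. Of all genes, 8.68% moved up and 5.23% down from day 0 to day 1. The shares were 7.36% and 6.49% from day 1 to day 2, and 11.9% and 9.04% from day 2 to day 7. The genes for sample values were chosen in part for large called changes, which favoured such differences.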

How the results depend on the processing

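No called direction reversed under any alternative for the genes chosen for sample values. This was checked in C70 against vehicle at each day and in vehicle from day 0 to day 7, and not elsewhere. The medians of fatty acid oxidation at day 1 and of BCAA catabolism at day 7, both near 0, took either sign when single samples were left out. For named genes, 2335 results kept their side of the threshold, 27 lost it and 14 gained it. Counts of called genes moved most with the fold threshold. Without it, C70 calls numbered 2 higher and 10 lower on day 0 (background, the share of all genes, 10.9% and 8.91%), 5 higher and 17 lower on day 1 (21% and 19.7%), and 4 higher and 12 lower on day 7 (22.3% and 18.8%); lower calls were 4 from day 1 to day 2 within C70 samples (28.5%); and interaction calls were 3 higher and 3 lower for day 1 minus day 0 (11.1% and 8.81%), 17 lower for day 2 minus day 1 (8.77%), 24 higher for day 7 minus day 2 (16.5%) and 5 lower for day 7 minus day 0 (14%). With a fold change over 1.5, lower calls were 1, 1, 7 and 0 on the 4 days (0.527%, 1.64%, 4.67% and 0.87%); higher calls were 1 at each of days 1, 2 and 7 (7.48%, 9.88% and 7.93%); vehicle day 1 minus day 0 had 1 lower (18.6%); and interactions had 0 lower for day 1 minus day 0 (1.55%), 0 higher and 1 lower for day 2 minus day 1 (2.53% and 2.8%), 5 higher and 0 lower for day 7 minus day 2 (5.17% and 4.31%), and 3 higher and 0 lower for day 7 minus day 0 (7.3% and 2.97%). Lower calls at day 7 were 1 under RLE, quantile normalization, limma-voom, DESeq2 and the filter that left out the lowest 25% of genes. The shares of all genes there were 4.62%, 6.95%, 4.57%, 4.62% and 3.63%, in that order. Quantile normalization gave 1 higher call at day 0 (5.06%) and 1 higher at day 2 (15.1%). It also gave 2 lower for the interaction of day 1 minus day 0 (6.1%), where limma-voom gave 0 (5.1%). That interaction had 2 higher calls under upper-quartile scaling (9.4%) and under the filter (9.49%). The filter also gave 1 lower for day 7 minus day 0 (6.93%). Why these settings differ was not tested. With replicate 1 of vehicle at day 7 left out, the day 7 calls without the fold threshold held more higher than lower genes, as named above. The share of all genes there is not given.

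Deviations of same-numbered samples correlated with r from -0.20 to 0.21 over 13 pairs of vehicle and C70 samples of 1 day. At day 7, pairs with different numbers ranged from -0.25 to 0.33. In groups of 3 or 4 samples such values cannot decide whether same-numbered samples were handled together. With a replicate block over all groups, 1 gene was called higher at day 0 (5.8% of all genes). The BCAA median there was -0.14 with the block. Counting the shared enzymes in both pathways, without the block, gave -0.12. The block moved no other count by more than 1.5 times. For the fits that left out a sample, the shares of all genes are not given here. Leaving out each sample in turn gave 0 to 1 higher at day 0, 2 to 4 higher and 0 to 2 lower at day 7, interactions of 1 to 2 higher and 0 to 2 lower for day 1 minus day 0 and 0 to 3 lower for day 7 minus day 0, and medians of -0.057 to -0.0081 for fatty acid oxidation and -0.18 to -0.14 for BCAA catabolism at day 0, -0.048 to 0.022 for fatty acid oxidation at day 1, and -0.092 to -0.010 for fatty acid oxidation and -0.040 to 0.0069 for BCAA catabolism at day 7.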
